A study of Mus musculus with 6 samples.

Results

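The 39 mouse Hox genes of the Hoxa, Hoxb, Hoxc and Hoxd clusters were read in RNA from satellite cells, which are muscle stem cells, with and without a homozygous deletion in Lmna. Hox genes encode homeodomain transcription factors. They lie in 4 chromosomal clusters, carry a paralogue number that follows their order in the cluster, and are expressed along the body axis and the limb in that order, with genes of high number marking posterior and distal positions. Genes of the same number in different clusters are paralogues of common descent. Polycomb complexes keep Hox genes silent where they are not used, Trithorax-group proteins keep them active where they are, and Pbx, Meis and Pknox proteins bind DNA together with Hox proteins. Satellite cells retain a Hox pattern from the embryonic limb into postnatal life.

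All libraries came from hind-limb muscle of C57BL/6J mice at postnatal day 19, from which satellite cells were sorted by flow cytometry. Of the 6 libraries, 3 were from Lmna Δ8-11 -/- mice (homozygous) and 3 from Lmna Δ8-11 +/+ mice (wild type), and the series title places the comparison in a study of Polycomb repression in lamin-dependent muscular dystrophy. The allele is named for exons 8 to 11 of Lmna, which encodes the nuclear envelope proteins lamin A and lamin C. The labels name no Cre driver or other restriction to a cell type, and they do not give the markers of the sort gate. The labels name 3 mice for each condition without tying a mouse to a library, so p-values measure the spread between these libraries. Members were taken as every gene whose symbol in the GENCODE M21 annotation is Hox, a cluster letter and a number, which found 39 of the 39059 genes in the files.

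Each library held between 6613636 and 9552751 reads assigned to genes. Levels are given as CPM, the usual depth-scaled read count, with library totals adjusted by the TMM method. Lmna itself (chr3:88480147-88509956, mm10) was at 436, 375 and 451 CPM in homozygous replicates 1, 2 and 3 and at 842, 939 and 1057 CPM in wild-type replicates 1, 2 and 3, a log2 fold change (homozygous minus wild type, here and below) of -1.17 ± 0.14 (SE). Satellite cell markers were present in all 6 libraries, Pax7 among them (2268 to 2422 CPM summed over 8 markers in the wild type). So were markers of other cells of the muscle. In the wild type these included mural cells (9121 to 12938 CPM summed over 6 markers), fibro-adipogenic progenitors (4423 to 4722 CPM over 8 markers) and Schwann cells (3209 to 4102 CPM over 4 markers). Reads from Y-linked genes were present in homozygous replicate 2 and wild-type replicates 2 and 3, and the ribosomal-RNA-overlapping gene Gm42418 was high in replicate 2 of both genotypes. In bulk RNA, fewer cells of a type and less RNA per cell cannot be told apart.

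Paralogues share most of their homeobox, which bears on how far their reads can be told apart. The 180-base homeobox was found in the GENCODE transcripts of all 39 members, each within 1 exon. The 42 pairs of members with the same number had a median of 80.6% identical bases and 93.3% identical residues in the homeodomain, against 60.6% and 61.7% over the other 699 pairs. For runs of identical bases, 1 transcript per member was compared, the longest protein-coding one that held the homeobox. Between these, the longest run shared by 2 members was 52, and 2 of 741 pairs shared a run of at least 50. Other transcripts can share more: on the same strand, the gene models of Hoxc10 and Hoxc5 have 8.70% and 5.37% of their exon bases in common. The homeobox of Hoxc10, called in the comparison below, is shown with that of Hoxa10, its most abundant paralogue, 5′ to 3′ on the coding strand (GRCm38). Hoxc10 (chr15:102970848-102971027, plus strand) and Hoxa10 (chr6:52232554-52232733, minus strand) differ at 35 of 180 bases. Capitals mark the bases at which they differ.
Hoxc10: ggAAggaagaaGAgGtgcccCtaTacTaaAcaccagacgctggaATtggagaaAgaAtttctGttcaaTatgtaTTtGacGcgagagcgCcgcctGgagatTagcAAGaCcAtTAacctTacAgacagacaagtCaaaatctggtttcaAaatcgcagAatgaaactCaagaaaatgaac
Hoxa10: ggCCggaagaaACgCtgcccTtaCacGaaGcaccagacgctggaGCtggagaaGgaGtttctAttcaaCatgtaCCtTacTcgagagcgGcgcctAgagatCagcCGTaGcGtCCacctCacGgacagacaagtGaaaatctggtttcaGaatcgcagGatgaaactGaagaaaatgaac

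The Hox genes were expressed at low levels in these cells. Together they took 120.5 to 133.1 CPM in the wild type and 92.2 to 111.5 CPM in the homozygous libraries. The member with the highest mean CPM, Hoxa10, was exceeded by 55.4% of all 14099 genes tested. A filter on low counts passed 19 members, 6 from Hoxa, 4 from Hoxb, 7 from Hoxc and 2 from Hoxd, and these held 92.3% of all Hox reads. Of the other 20, 10 had at least 10 reads over the 6 libraries, and Hoxb1, Hoxb13 and Hoxd12 had 0 reads in every library, which allows a level of up to 0.124 CPM over the homozygous group and 0.132 CPM over the wild type (3 reads, counting error only).

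Per kilobase of exon, 2 members stood above the rest. The exon length counts the exon bases of all annotated transcripts of a gene, so this ranking depends on the gene models. Hoxd8 was at 5.72 ± 0.30 CPM per kb in the wild type and 4.62 ± 0.75 in the homozygous libraries (SD, n = 3 each), and Hoxa10 was at 5.58 ± 0.13 and 4.21 ± 0.77. These 2 did not differ from each other beyond their spread in either genotype. Behind them came a group within overlapping spreads in the wild type: Hoxa9 at 3.23 ± 0.51, Hoxa7 at 2.95 ± 0.33, Hoxa5 at 2.77 ± 0.35, Hoxc10 at 2.77 ± 0.34 and Hoxc6 at 2.67 ± 0.28 CPM per kb. This group had no sharp lower edge. Hoxb2 at 2.31 ± 0.42 and Hoxa6 at 2.19 ± 0.45 followed, with spreads that overlapped those of Hoxa7, Hoxa5, Hoxc10 and Hoxc6. In the homozygous libraries Hoxc10 was at 1.28 ± 0.41 CPM per kb, and Hoxa5, at 2.90 ± 0.16, was the highest of that group. Before division by exon length, Hoxa9 (5580 exon bases) and Hoxa10 (3270) were close in the wild type, at 18.03 ± 2.82 and 18.26 ± 0.43 CPM.

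The clusters differed in which numbers they used. Hoxa carried a run from Hoxa5 to Hoxa10 and took 47.8% ± 1.95 of the wild-type Hox reads (SD, n = 3) and 48.1% ± 1.84 of the homozygous ones. Hoxc took 22.2% ± 1.47 and 19.6% ± 2.38, Hoxb 15.1% ± 0.42 and 16.9% ± 2.34, and Hoxd 14.97% ± 0.95 and 15.4% ± 1.24. In Hoxb the reads lay at the low numbers, mainly Hoxb2, Hoxb3 and Hoxb4. In Hoxd they lay almost wholly in Hoxd8, which held between 77.1% and 86.2% of that cluster's reads in each library. The distal end of every cluster was nearly silent: the 6 members numbered 12 and 13 had 26 reads over the homozygous libraries and 16 over the wild type.

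**Figure D1:**
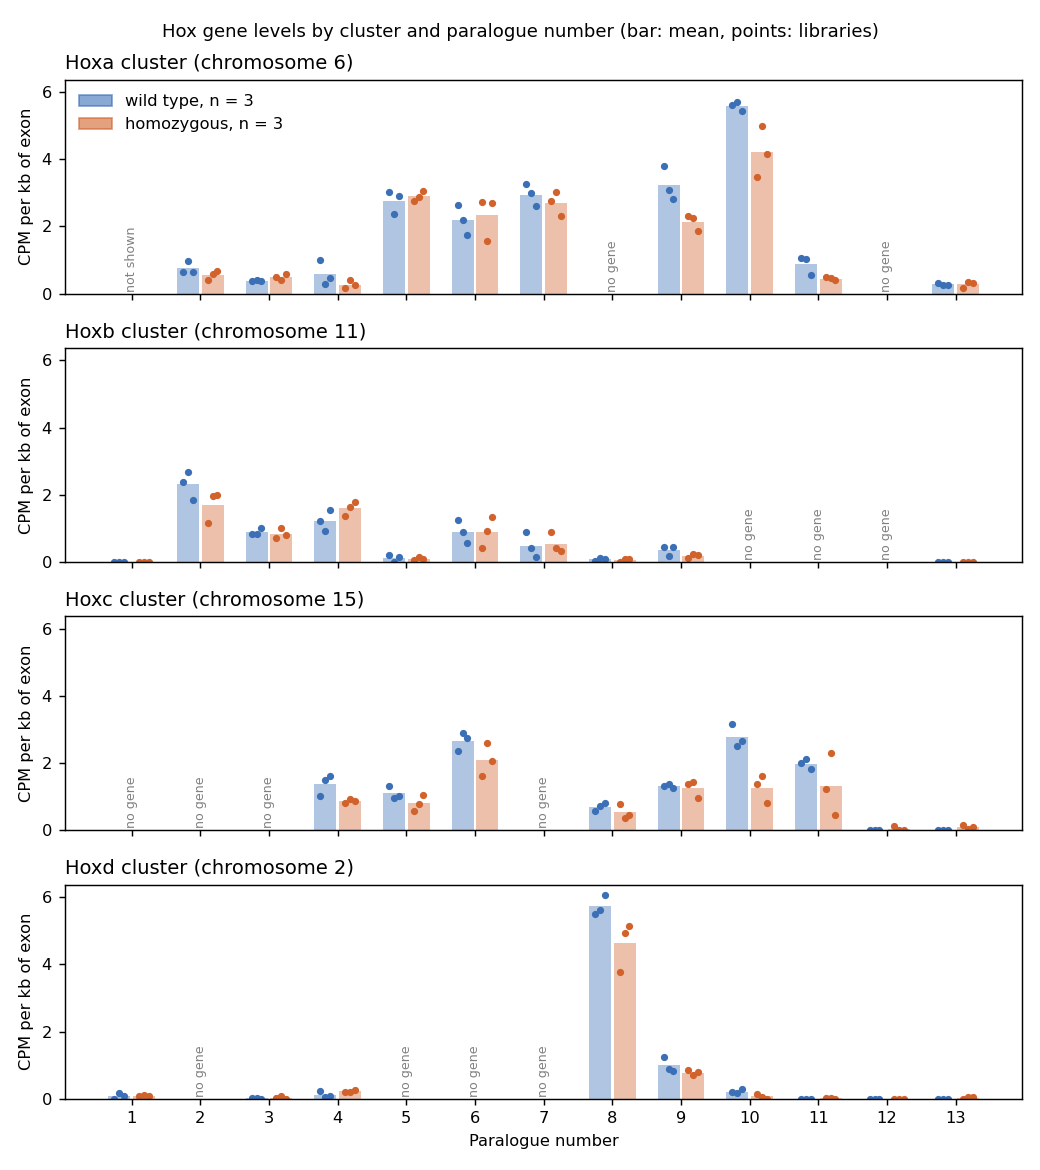
Level of each Hox gene in CPM per kilobase of exon (vertical axis) by paralogue number (horizontal axis), one panel per cluster, with 1 member not shown; bars are means of 3 libraries and points are the libraries. Hoxd8 and Hoxa10 are the highest, Hoxb is used at its low numbers, and numbers 12 and 13 lie near 0 in every cluster.

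Between genotypes, Hoxa9 and Hoxc10 fell in the homozygous cells and none was called higher by edgeR, DESeq2 or voom (0 at an unadjusted p under 0.05). These were 2 of the 19 members tested (edgeR quasi-likelihood test, Benjamini-Hochberg adjusted p under 0.05 over all genes). Over all 14099 genes tested, 11.5% were called lower and 9.67% higher, so the share of Hox genes called lower is near the background. Values below 0 were found for 15 of the 19, against 50.4% of all genes tested, and the median log2 fold change was -0.33, against -0.0038 over all genes. The 3 homozygous values lay below all 3 wild-type values for 5 of the 19 (Hoxa9, Hoxa10, Hoxc4, Hoxc10 and Hoxd8), where the background is 20.6%, and above them for 1 (Hoxa3), where it is 20.2%. These counts describe the members that passed the filter, which needs reads in only 3 libraries, and not all 39.

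Hoxa9, a member with a known role in blood-forming progenitors that is also induced in satellite cells of old mice, was at 12.9, 12.5 and 10.5 CPM in homozygous replicates 1, 2 and 3 and at 21.2, 17.2 and 15.7 CPM in wild-type replicates 1, 2 and 3. Every homozygous library lay below every wild-type library. Its log2 fold change was -0.59 ± 0.17 (SE; adjusted p = 0.035). The call was lost with DESeq2 (adjusted p = 0.054), with the a covariate for Y-linked reads (0.052), and without homozygous replicate 1 (0.069) or 3 (0.12) or wild-type replicate 1 (0.15) or 2 (0.066). The log2 fold change stayed between -0.69 and -0.46 when each library was left out in turn.

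Hoxc10, which with its paralogues patterns the lumbar spine and the proximal hind limb, was at 2.66, 3.07 and 1.57 CPM in the homozygous libraries and at 6.02, 4.77 and 5.08 CPM in the wild type, again without overlap. Its log2 fold change of -1.11 ± 0.29 (SE; adjusted p = 0.024) was the farthest from 0 among the tested members. The call was kept with DESeq2 and with the Y-linked covariate, and lost without homozygous replicate 1 (adjusted p = 0.059) or 3 (0.082) or wild-type replicate 1 (0.098) or 3 (0.057). The gene model of Hoxc10 shares 8.70% of its exon bases with Hoxc5 on the same strand.

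Hoxa10, the neighbour of Hoxa9 and the paralogue of Hoxc10, was at 11.3, 16.3 and 13.6 CPM in the homozygous libraries and at 18.4, 18.6 and 17.8 CPM in the wild type. The groups did not overlap, but the difference missed the threshold (log2 fold change -0.40 ± 0.17, adjusted p = 0.11). It passed with voom and sample weights (adjusted p = 0.048) and without homozygous replicate 2 (0.037). Hoxa9 and Hoxa10 together made up 59.8% to 60.7% of the Hoxa reads in the wild-type libraries and 50.8% to 55.2% in the homozygous ones.

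**Figure D2:**
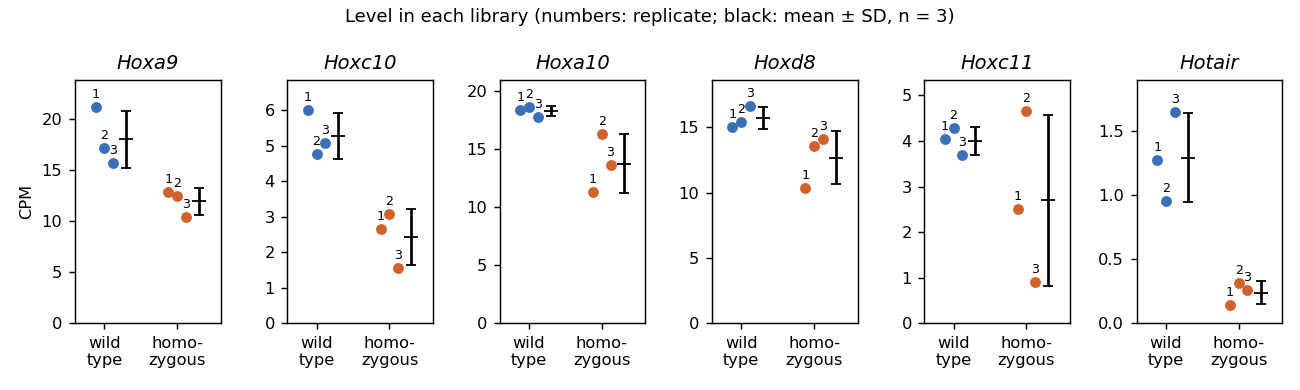
Level in CPM (vertical axis, from 0, a scale per gene) of 5 Hox genes and the cluster transcript Hotair in each library; numbers are replicates and the black marks are mean ± SD of 3 libraries. Hoxa9, Hoxc10, Hoxa10, Hoxd8 and Hotair do not overlap between genotypes, and in Hoxc11 homozygous replicate 2 lies above every wild-type library.

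The remaining Hoxa members that were tested did not pass the threshold. Hoxa3 was at 2.94, 2.44 and 3.53 CPM in the homozygous libraries and at 2.31, 2.38 and 2.29 CPM in the wild type (log2 fold change 0.34, adjusted p = 0.41). It was the tested member whose homozygous libraries all lay above the wild type. Of its exon bases, 25.4% overlap transcripts of the opposite strand, Hoxaas3 among them, and 8.01% overlap a transcript of the same strand. The log2 fold changes of Hoxa5, Hoxa6 and Hoxa7 were 0.06, 0.06 and -0.12, each smaller than its standard error. For Hoxa7, 20.4% of the exon bases overlap a transcript of the opposite strand, also Hoxaas3.

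In Hoxb no tested member passed. Hoxb2, the most abundant there, was at 4.06, 6.89 and 6.94 CPM in the homozygous libraries and at 8.33, 9.38 and 6.48 CPM in the wild type (log2 fold change -0.42 ± 0.26, adjusted p = 0.27). Homozygous replicate 1 was the lowest library and the groups overlapped. Hoxb3 was at 3.08, 4.35 and 3.40 CPM against 3.59, 3.50 and 4.32 CPM (-0.07 ± 0.26, adjusted p = 0.88). Hoxb4 and Hoxb6 had log2 fold changes of 0.37 and -0.02. Of the exon bases of Hoxb2 and Hoxb3, 27.3% and 52.9% overlap transcripts of the opposite strand.

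All 7 tested members of Hoxc had a log2 fold change below 0, from -1.11 for Hoxc10 to -0.06 for Hoxc9. Hoxc4 was at 2.10, 2.44 and 2.23 CPM in the homozygous libraries and at 2.66, 3.82 and 4.19 CPM in the wild type, without overlap (log2 fold change -0.64, adjusted p = 0.14). Hoxc6, with the highest mean CPM of the cluster, was at 3.92, 6.26 and 4.97 CPM against 5.67, 6.99 and 6.60 CPM (-0.33 ± 0.24, adjusted p = 0.35). The groups overlapped through homozygous replicate 2, which was above wild-type replicate 1.

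Hoxc11, a member of the paralogue group that patterns the middle limb segment, was spread widely over the homozygous libraries. It was at 2.52, 4.67 and 0.92 CPM in the homozygous libraries and at 4.05, 4.29 and 3.68 CPM in the wild type (log2 fold change -0.53, adjusted p = 0.42). Homozygous replicate 2 was the highest of the 6 libraries and replicate 3 the lowest. Without homozygous replicate 2 the log2 fold change was -1.23 (adjusted p = 0.041), and without homozygous replicate 3 it was -0.13 (adjusted p = 0.83). Hoxc5 and Hoxc8 had log2 fold changes of -0.45 and -0.39, neither past the threshold.

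Hoxd8 was at 10.3, 13.6 and 14.1 CPM in the homozygous libraries and at 15.04, 15.4 and 16.6 CPM in the wild type. The groups did not overlap and the difference missed the threshold (log2 fold change -0.30 ± 0.17, adjusted p = 0.22). Hoxd9 was at 1.82, 1.48 and 1.70 CPM against 2.66, 1.91 and 1.78 CPM (-0.36 ± 0.32, adjusted p = 0.45), with overlap between homozygous replicate 1 and wild-type replicate 3.

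**Figure D3:**
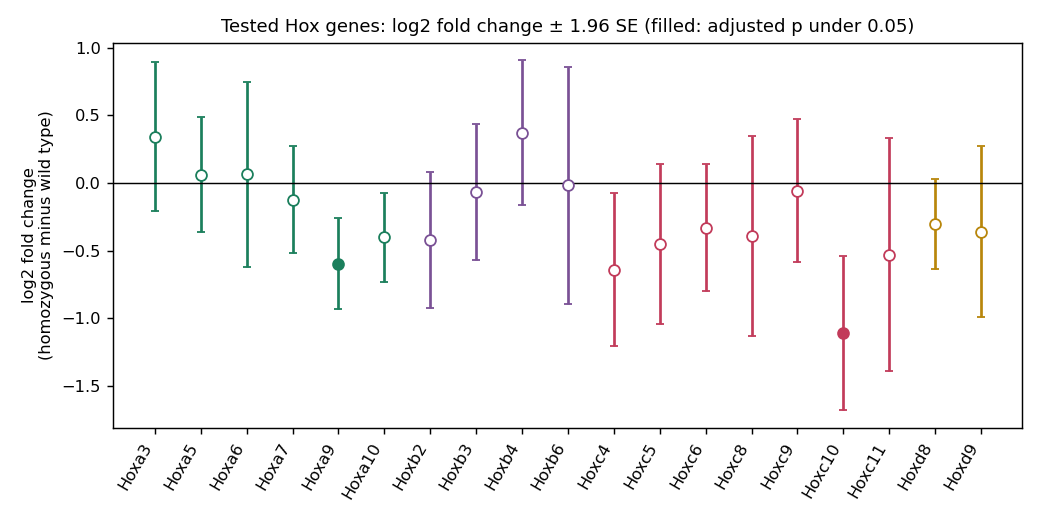
Log2 fold change (vertical axis, homozygous minus wild type) of the 19 tested Hox genes in cluster order. Bars are a fixed multiple of the standard error and are narrower than 95% intervals of the test. Colours are the clusters and filled points are genes with an adjusted p under 0.05. Hoxa9 and Hoxc10 are filled, 15 of 19 points lie below 0, and all 7 Hoxc points do.

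Summed over each cluster, the homozygous libraries lay below the wild type in Hoxa (48.7 ± 3.18 against 60.2 ± 5.54 CPM, SD, n = 3 each), Hoxc (19.9 ± 3.38 against 27.9 ± 0.51 CPM) and Hoxd (15.6 ± 1.91 against 18.8 ± 0.51 CPM). In Hoxb they overlapped (17.2 ± 3.39 against 19.0 ± 1.49 CPM). Sums were not tested, because the members were chosen with results known. By paralogue number, group 8 (14.4 ± 1.61 against 17.9 ± 1.20 CPM), group 9 (17.2 ± 1.83 against 24.3 ± 3.48 CPM) and group 10 (16.3 ± 2.80 against 23.9 ± 0.73 CPM) were lower in every homozygous library. Groups 1 to 7 and group 11 overlapped, and group 12 had 1 read. Group 13 had few reads, 25 against 16, and was higher in every homozygous library (1.03 ± 0.17 against 0.69 ± 0.10 CPM).

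The ends of Hoxa had different values. Its members numbered 1 to 8 summed to 21.2 ± 0.58 CPM in the homozygous libraries and 21.2 ± 1.89 CPM in the wild type. Its members numbered 9 to 13 summed to 27.4 ± 2.88 against 39.01 ± 3.70 CPM, with no overlap. In Hoxc both classes were lower without overlap, at 11.3 ± 1.13 against 15.4 ± 1.21 CPM for numbers 1 to 8 and 8.51 ± 3.16 against 12.5 ± 0.76 CPM for numbers 9 to 13. In Hoxd, numbers 1 to 8 were lower without overlap (13.7 ± 2.15 against 16.3 ± 0.62 CPM). Numbers 9 to 13 overlapped (1.958 ± 0.24 against 2.51 ± 0.44 CPM) but had few reads, 47 against 58. Their pooled ratio was 0.763 (exact interval 0.508 to 1.14, counting error only), against 0.845 (0.727 to 0.983) for numbers 1 to 8. These intervals overlap, so the reads cannot show which class of Hoxd fell more. Both classes of Hoxb overlapped. Over all clusters, the 16 members numbered 9 to 13 summed to 38.4 ± 5.71 CPM against 55.0 ± 4.90 CPM, and took 37.9% ± 4.09 of the homozygous Hox reads against 43.6% ± 1.64 of the wild-type ones. All 6 tested members numbered 9 to 13 had a log2 fold change below 0 (median -0.47), against 9 of 13 numbered 1 to 8 (median -0.12). This split at number 9 was drawn after the values were seen and was not tested.

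**Figure D4:**
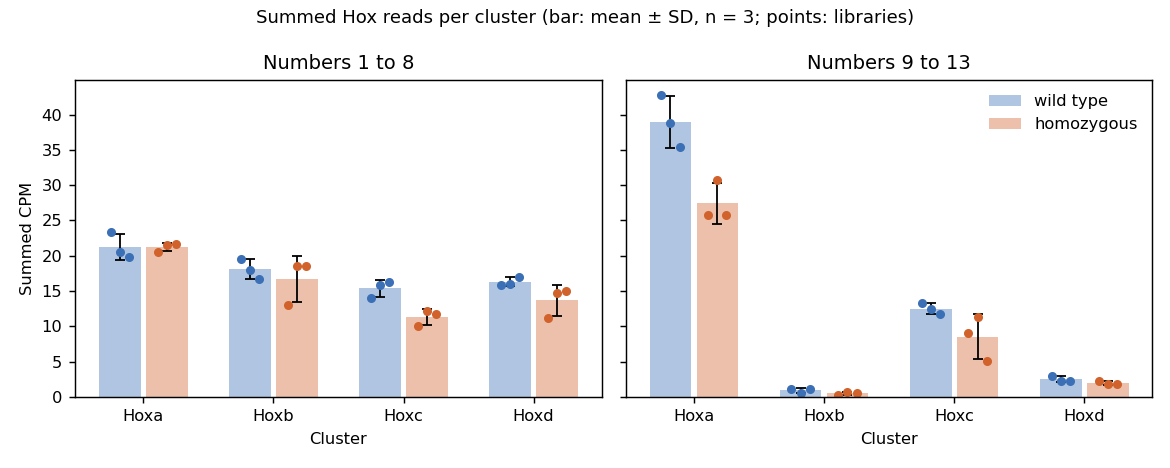
Summed CPM (vertical axis, from 0) of Hox genes numbered 1 to 8 (left) and 9 to 13 (right) in each cluster; bars are means ± SD of 3 libraries and points are the libraries. Numbers 1 to 8 of Hoxa are at 21.2 CPM in both genotypes, while numbers 9 to 13 of Hoxa are at 27.4 CPM in the homozygous and 39.01 CPM in the wild-type libraries.

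The 20 members below the filter were compared by pooled reads. Together they had 197 reads in the homozygous libraries and 214 in the wild type, a depth-adjusted ratio of 0.87 (exact 95% interval 0.71 to 1.06, counting error only). Those numbered 1 to 8 had 129 and 121 reads, a ratio of 1.004 (0.78 to 1.30). Those numbered 9 to 13 had 68 and 93 reads, a ratio of 0.69 (0.50 to 0.95). Within this set Hoxa11 held more reads than any other member. The 6 numbered 12 and 13 went the other way, with 26 and 16 reads (ratio 1.53, 0.79 to 3.05), so the members did not fall together. Hoxa11, whose group patterns the middle limb segment, had 25 and 46 reads and lay at 1.12, 1.06 and 0.92 CPM against 2.43, 2.38 and 1.27 CPM. Its homozygous libraries were all below the wild type (ratio 0.51, 0.30 to 0.85). In the fits that admitted it the difference did not pass, with an adjusted p of 0.15 with no filter, 0.10 with a filter of 1 CPM and 0.068 to 0.24 in 5 fits without 1 library. Of its exon bases, 35.0% overlap transcripts of the opposite strand.

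Among the others with at least 10 reads, most intervals of the ratio included 1. Hoxa2 had 24 reads against 30, Hoxa13 17 against 16, Hoxb5 7 against 8, Hoxb7 20 against 18, Hoxb9 12 against 22 and Hoxd4 16 against 9. Hoxa4 had 11 against 23, a ratio of 0.45 (0.20 to 0.96), and was at 0.28, 0.64 and 0.39 CPM against 1.62, 0.48 and 0.76 CPM. The groups overlapped and wild-type replicate 1 was the highest library. Without it the ratio was 0.71 (0.27 to 1.95), and with no filter the adjusted p over all 6 libraries was 0.28. Hoxd10 had 3 reads against 9 (ratio 0.31, 0.055 to 1.26). Hoxd4 and Hoxd3 share 52.3% and 62.3% of their exon bases with other transcripts of the same strand, so reads there could be left unassigned.

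A few distal members had reads in homozygous libraries alone. Hoxc13, a gene of skin and nail, had 3, 1 and 2 reads in homozygous replicates 1, 2 and 3 and 0 in the wild type. The exact 95% interval of its pooled ratio began at 1.11 (counting error only), and in a fit with no filter on low counts it did not pass the threshold (adjusted p = 0.12). Hoxc12 had 1 read, Hoxd11 2 and Hoxd13 2 in the homozygous libraries and 0 in the wild type, which is at or under the floor.

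Other transcripts of the Hox clusters were read from the annotation: 50 genes lie within 5000 bases of a cluster, 49 of them in the files and 20 with 0 reads. Only 3 could be tested, and none was called by edgeR, DESeq2 or voom (0 at an unadjusted p under 0.05). Hoxb3os, antisense to Hoxb3, was at 8.67, 9.44 and 7.59 CPM in the homozygous libraries and at 6.02, 7.47 and 7.24 CPM in the wild type, without overlap (log2 fold change 0.32, adjusted p = 0.28). Hoxd3os1 overlapped between genotypes (0.30, adjusted p = 0.60). Hoxaas3 was at 1.68, 1.48 and 2.09 CPM against 0.69, 0.16 and 1.40 CPM without overlap (1.14, adjusted p = 0.15).

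Hotair, a long noncoding RNA transcribed from the Hoxc cluster on the strand opposite to its Hox genes, was singled out after its values were seen. It had 6 reads in the homozygous libraries and 30 in the wild type, at 0.14, 0.32 and 0.26 CPM against 1.27, 0.95 and 1.65 CPM. The groups did not overlap, with a pooled ratio of 0.19 (exact 95% interval 0.064 to 0.46). It was under the filter in the comparison of all 6 libraries, and was called lower where another choice admitted it: with no filter (log2 fold change -2.34, adjusted p = 0.006) and without homozygous replicate 1 or 3 or wild-type replicate 2 (adjusted p between 0.026 and 0.049). In the fits without 1 library it passed the filter through the wild type, where it is high, so these calls are a description and support nothing further. Hotairm1, a noncoding RNA of the Hoxa cluster, had 22 reads against 13, and Hoxa11os 5 against 11.

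Promoter sequence was available in RefSeq (GRCm38.p6) for 22 of the 39 members, in 24 windows of 250 bases before to 50 after the start. The dinucleotide CG, which reads the same on both strands and whose density goes with Polycomb and Trithorax binding at many promoters, occurred a median of 14.5 times in a Hox window against 7 over 32851 windows of all genes. At least 10 were present in 70.8% of Hox windows and 43.5% of all. Hoxa9 and Hoxa10, adjacent tested members that were lower without overlap, had different windows. The window of Hoxa11, the untested neighbour of Hoxa10 that was also lower without overlap, held 15. The Hoxa9 window (chr6:52227321-52227620, minus strand) held 4, the lowest number among the 24 and also that of Hoxd4 and of a Hoxd11 window. A second Hoxd11 window held 25. Hoxc10, the other member called lower, had no window. A Hoxa10 window (chr6:52234890-52235189, minus strand) held 21, and a second Hoxa10 start had 12. The Hoxa9 window and the Hoxa10 window with 21 are printed 5′ to 3′ with each CG in capitals.
Hoxa9: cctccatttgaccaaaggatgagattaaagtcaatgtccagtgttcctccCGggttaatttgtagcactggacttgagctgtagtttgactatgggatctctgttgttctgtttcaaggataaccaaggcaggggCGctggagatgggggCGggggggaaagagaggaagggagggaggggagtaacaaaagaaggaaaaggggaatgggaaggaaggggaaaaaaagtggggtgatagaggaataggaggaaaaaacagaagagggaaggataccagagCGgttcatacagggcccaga
Hoxa10: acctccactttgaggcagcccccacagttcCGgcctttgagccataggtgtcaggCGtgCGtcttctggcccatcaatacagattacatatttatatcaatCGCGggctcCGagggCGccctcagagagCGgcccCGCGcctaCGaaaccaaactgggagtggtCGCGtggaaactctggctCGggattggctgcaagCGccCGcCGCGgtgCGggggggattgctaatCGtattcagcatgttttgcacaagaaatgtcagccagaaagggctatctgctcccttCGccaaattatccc

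Genes that flank the clusters moved in both directions. Of the 24 nearest protein-coding genes, 3 on each side of each cluster, 19 were tested, 1 rose and 4 fell. For this list and those below, the background over all 14099 genes tested is 9.67% called higher and 11.5% called lower. The median log2 fold change was 0.09. Snx11, a sorting nexin beside Hoxb, rose (log2 fold change 0.68). The mitochondrial ATP synthase c-subunit genes Atp5g1, Atp5g2 and Atp5g3, which lie beside Hoxb, Hoxc and Hoxd, fell (-0.58, -0.61 and -0.52), as did the RNA-binding protein gene Hnrnpa1 beside Hoxc (-0.60). Snx11 kept its call in all 6 fits without 1 library. Atp5g1 kept it in 1 (without wild-type replicate 3), Atp5g2 in 2 (without replicate 2 of the homozygous or replicate 3 of the wild type) and the other two in 3, with adjusted p up to 0.16. Hnrnpa1 lost it without homozygous replicate 3 or wild-type replicate 2 or 3, and Atp5g3 without homozygous replicate 1 or 3 or wild-type replicate 2. The Atp5g genes also lost their calls with the Y-linked covariate (adjusted p 0.083 to 0.090). Evx1 and Evx2, the homeobox genes next to number 13 of Hoxa and Hoxd, had 0 reads in every library.

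Among genes for proteins that bind DNA with Hox proteins, Pknox2 fell. It was 1 of 8 tested of the 9 genes of the Pbx, Meis and Pknox families, and none was called higher by edgeR or DESeq2 (2 at an unadjusted p under 0.05, and 2 by voom). Pknox2 was at 6.29, 8.38 and 7.59 CPM in the homozygous libraries and at 11.9, 10.5 and 12.7 CPM in the wild type, without overlap (log2 fold change -0.65, adjusted p = 0.036). The call was lost with DESeq2 (adjusted p = 0.067), with the Y-linked covariate (0.084) and in every fit without 1 library other than that without homozygous replicate 2 (up to 0.12). The median over the 8 was 0.16.

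Among 9 genes that act on the Trithorax side, 2 rose and 1 fell. The rising ones were Kmt2a (log2 fold change 0.43, adjusted p = 0.037) and Kmt2b (0.59, adjusted p = 0.016), which encode histone H3 lysine 4 methyltransferases. Dot1l, a histone H3 lysine 79 methyltransferase, fell (-0.35, adjusted p = 0.040). No gene of the 9 was called without homozygous replicate 1 or 3 or wild-type replicate 2, and over all fits without 1 library the adjusted p of these 3 reached 0.12, 0.062 and 0.13. Dot1l lost its call in each of the 6, Kmt2a in each other than that without homozygous replicate 2. Dot1l was also lost with DESeq2 (adjusted p = 0.078), and Dot1l and Kmt2a with the Y-linked covariate (0.11 each). Of 19 Polycomb genes, all tested, 3 rose and 1 fell, where 21.1% of all genes tested were called in either direction. Ezh1, a catalytic subunit of Polycomb repressive complex 2, rose from 66.5, 48.3 and 58.8 CPM in the wild type to 118, 118 and 101 CPM (log2 fold change 0.95, adjusted p = 0.0019). Cbx7 and Cbx2, which read histone H3 lysine 27 methylation, rose as well (1.18 and 0.83), and the complex 2 cofactor Jarid2 fell (-0.45). Ezh2, the other catalytic subunit, had a log2 fold change of 0.12 (adjusted p = 0.60). Ezh1 and Cbx7 kept their calls in all 6 fits without 1 library. Cbx2 lost it without homozygous replicate 1 or wild-type replicate 2 or 3 (adjusted p up to 0.10), and Jarid2 in every such fit other than that without homozygous replicate 2 (up to 0.14). Both were also lost with the Y-linked covariate (0.061 and 0.094).

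Of 9 genes for signals known to set Hox expression in the embryo, 5 were tested, 1 rose and 2 fell. Cyp26b1, which breaks down retinoic acid, rose from 4.86, 3.50 and 6.35 CPM in the wild type to 9.79, 9.65 and 9.95 CPM (log2 fold change 0.98, adjusted p = 0.016). The retinoic acid receptor gene Rarb (-0.56, adjusted p = 0.033) and Gdf11, a ligand that shifts axial identity (-0.85, adjusted p = 0.014), fell. Gdf11 and Cyp26b1 lost their calls without homozygous replicate 3 or wild-type replicate 1 (adjusted p up to 0.053 and 0.063), and Rarb without homozygous replicate 1 or 3 or wild-type replicate 1 or 2 (up to 0.10). Rarb was also lost with DESeq2 (0.066) and with the Y-linked covariate (0.079). Aldh1a2, which makes retinoic acid, had 5 reads against 23. Cdx2 and Cdx4, regulators of Hox genes in the early embryo, had 0 reads, and Cdx1 had 1.

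Several genes of limb position and patterning fell. Of 19, 12 were tested and 6 fell, with a median log2 fold change of -0.68. None was called higher by edgeR, DESeq2 or voom (0 at an unadjusted p under 0.05). By smallest p the calls were Meox2 (-0.96), Pitx3 (-2.14), Meox1 (-1.45) and Lbx1 (-1.55). Meox1 and Meox2 are somite homeobox genes, Lbx1 marks migrating muscle precursors, and Pitx3 acts in muscle precursors. Tbx4, a T-box gene of the hind limb (-1.67), was among the others. Tbx4 was at 1.26, 3.07 and 0.52 CPM against 5.44, 5.72 and 5.08 CPM. Its fore-limb paralogue Tbx5 had 14 reads against 19. Between 2 and 3 genes of the list were called without homozygous replicate 1 or 3 or wild-type replicate 1 or 2. Meox2 and Pitx3 kept their calls in all 6 fits without 1 library, while the adjusted p of Meox1, Lbx1 and Tbx4 reached 0.070, 0.076 and 0.085. Meox1, Meox2, Lbx1 and Pitx3 are known to act in the muscle lineage itself.

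Of the cell type marker sums, those of satellite cells and fibro-adipogenic progenitors were lower in every homozygous library, as was the Hox sum. Satellite cell markers summed to 1200 to 1919 CPM in the homozygous libraries and 2268 to 2422 CPM in the wild type, and 5 of 8 were called lower and none higher. Markers of fibro-adipogenic progenitors summed to 1442 to 2247 against 4423 to 4722 CPM, with 5 of 8 lower and 1, Pdgfra, higher. Tendon markers (70.0 to 187 against 180 to 205 CPM, 2 of 5 lower), endothelial markers (257 to 464 against 317 to 504 CPM, 0 of 5 called by edgeR or at an unadjusted p under 0.05, 2 lower by voom), Schwann cell markers (2792 to 3635 against 3209 to 4102 CPM, 1 of 4 each way) and mural cell markers (9509 to 10185 against 9121 to 12938 CPM, 2 of 6 higher and 1 lower) overlapped. So did those of macrophages and leukocytes (23.8 to 24.3 against 10.5 to 27.6 CPM, 1 of 3 tested higher), muscle fibres (59.0 to 113 against 93.6 to 132 CPM, 1 of 4 lower) and erythroid cells (193 to 776 against 769 to 1337 CPM, 1 of 3 lower). Adipocyte markers were higher in the homozygous libraries (18.3 to 103 against 0.35 to 0.89 CPM), with Cidec and Adipoq called, the 2 of 4 that were tested. The adipocyte marker Lep had 0 reads in the homozygous libraries and 1 in the wild type, and no other marker was at 0 in a whole group. Homozygous replicate 2 had the highest Hox sum of its group (111.5 CPM) and the highest sums of satellite cell, fibro-adipogenic progenitor, tendon, endothelial, Schwann cell and erythroid markers. In the wild type, replicate 3 had the highest satellite cell sum (2422 CPM) and the lowest Hox sum (120.5 CPM). The part of these markers in the Hox differences was not tested.

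**Figure D5:**
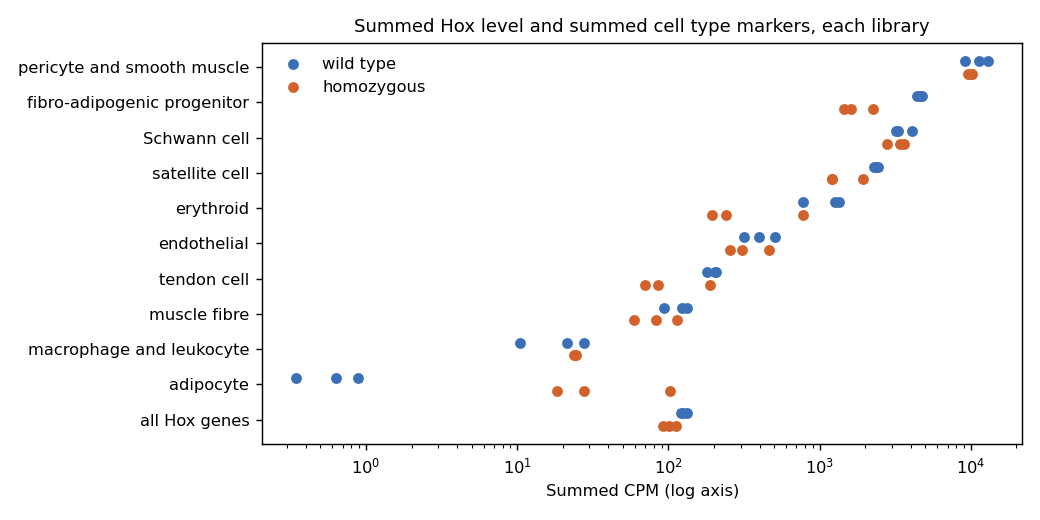
Summed CPM (horizontal axis, logarithmic) of all Hox genes and of each cell type marker list in the 3 wild-type and 3 homozygous libraries. Satellite cell and fibro-adipogenic progenitor markers and the Hox sum are lower in every homozygous library, adipocyte markers are higher, and the other lists overlap.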

How the data were processed

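RNA from 6 libraries (TruSeq Stranded Total RNA with Ribo-Zero, per the labels' protocols) was deposited as raw read counts per Ensembl gene, one file per library. Trimmomatic 0.32, STAR 2.5.2b, HTSeq 0.6.1 and mm10 are named in the submitters' processing notes. For the strand setting of HTSeq, nothing is stated in the labels. Summary lines that name no gene held 45.0% to 49.8% of all counted reads and were left out. Genes were matched to GENCODE M21. Counts were fitted with edgeR 4.0.16 in R 4.3.3 (filterByExpr with a minimum count of 10, TMM, quasi-likelihood test, homozygous against wild type, Benjamini-Hochberg over all 14099 genes, threshold 0.05), and the fitting was tested on simulated data. The SE is the log2 fold change divided by the square root of F. CPM used TMM-scaled totals. Intervals of pooled ratios are exact binomial at 95% and, like floors of 3 reads, cover counting error only. Alternatives used DESeq2 1.42.0, limma 3.58.1 (voom with sample weights), other scalings, filters and covariates, and left out each library. Replicates of one genotype differed beyond sampling noise (chi-square per gene 8.35 to 22.5).

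The members and all gene lists were chosen with earlier results of these data known. Genes named in full are those called and the 2 most abundant tested members per cluster. Members below the filter are named from 10 reads, and companion lists by up to 4 calls of smallest p, or else the 2 most abundant. Tbx4, Hotair and other genes outside this rule were chosen after their values were seen, as was the split of the clusters at number 9. Same-numbered libraries of the genotypes did not deviate together (correlations -0.050, 0.018 and -0.10), and the comparison was not paired. Correlations over 3 libraries per genotype cannot decide whether the numbers pair the samples, and Gm42418 was high in replicate 2 of both genotypes. A few genes and 1 sequence that the rule names are not reported here.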

Additional observations from a re-analysis of the deposited data

How the results depend on the processing

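Hoxa9 and Hoxc10 kept a negative log2 fold change in every fit run, and the Hox genes called lower numbered 2 with other size factors, library totals, no filter, a filter of 1 CPM, the replicate block, and without both number 2 libraries. They numbered 1 with DESeq2 and 1 with a covariate for Y-linked reads, 3 with voom, and from 0 to 4 when each library was left out: 0 without homozygous replicate 1 or 3 or wild-type replicate 1, 1 without wild-type replicate 2 or 3, and 4 without homozygous replicate 2. The cause was not tested. No fit called a Hox gene higher. Whether replicate numbers pair the samples is not stated in the labels. With the replicate number as a block, 2437 genes were called in place of 2980, and the adjusted p of Hoxa9 and Hoxc10 was 0.0497 and 0.034. Over all genes, 793 were called higher with the Y-linked covariate in place of 1363. When each library was left out, 655 to 1764 were higher and 881 to 2238 lower.

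Members near 0 changed sign under single choices. Hoxa5 was at -0.030 without wild-type replicate 2 and -0.028 without both number 2 libraries, Hoxa6 at -0.12 and Hoxb3 at 0.0068 with the Y-linked covariate, and Hoxb6 at 0.0075 with library totals. When each library was left out, the log2 fold change ranged from -0.030 to 0.13 for Hoxa5, -0.080 to 0.30 for Hoxa6, -0.23 to 0.039 for Hoxb3, -0.39 to 0.30 for Hoxb6 and -0.17 to 0.10 for Hoxc9.

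Counts of the companion lists, both directions together, moved as follows. Among Pbx, Meis and Pknox genes 1 became 0 with library totals, 0 with DESeq2, 0 with the replicate block, 0 with the Y-linked covariate, 2 with no filter, 3 with voom and 3 without both number 2 libraries. With the Y-linked covariate, 2 flanking genes, 1 Trithorax-side gene and 2 Polycomb genes were called. With no filter, 1 other gene of the clusters was called. When each library was left out, calls ranged from 0 to 1 for other genes of the clusters, 1 to 6 for flanking genes, 0 to 2 for Pbx, Meis and Pknox genes, 0 to 2 for Trithorax-side genes, 2 to 6 for Polycomb genes, 0 to 3 for upstream signals and 2 to 7 for limb genes. Calls of single companion genes were lost with the block for Atp5g1, Pknox2, Dot1l, Jarid2 and Rarb (adjusted p 0.062 to 0.095) and with DESeq2 for Pknox2, Dot1l and Rarb (0.066 to 0.078). Summed levels moved by less than their SD under other scalings. Low counts limit the rest: 20 of 39 members fell below the filter, and with no filter 36 had a fit.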
